A study of Mus musculus with 18 samples.

Results

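Adipokines are hormones and other proteins that fat tissue secretes into the blood, and the genes described here are 8 of them (Adipoq, Lep, Retn, Cfd, Rbp4, Angptl2, Apln and Serpina12) together with the adiponectin receptors Adipor1 and Adipor2. They were taken by name from the 21899 genes of the expression table, and all 10 were found there. RNA was measured in liver, epididymal white adipose tissue (eWAT, labelled WAT) and quadriceps muscle of wild-type male C57BL/6 mice of 18 weeks of age, with 3 CON and 3 HSD libraries for each tissue. CON mice had normal chow and tap water. HSD mice had a high-salt diet with saline as drinking water for 12 weeks, so salt in the food and salt in the water cannot be told apart. Each library was made from a piece of whole tissue and is named by its mouse and a letter for the tissue (L for liver, W for eWAT, M for muscle). The mice CON16, CON72, HS2 and HS5 gave all 3 tissues. Levels are given in FPKM, that is, fragments scaled to gene length (in kilobases) and to the total fragments of the library, which is a scale on which different genes can be compared.

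Adiponectin (Adipoq), leptin (Lep), resistin (Retn) and adipsin (Cfd, complement factor D, a protease that starts the alternative complement pathway) are made in mice mainly by adipocytes. Leptin reports the size of the fat store to the brain and normally falls when adipocytes shrink, whereas adiponectin raises insulin sensitivity and fatty acid oxidation in liver and muscle through the membrane receptors AdipoR1 and AdipoR2. Retinol-binding protein (Rbp4) carries vitamin A in the blood and comes mostly from liver, and Angptl2, apelin (Apln) and vaspin (Serpina12) are further secreted factors that have been tied to inflammation, blood vessels and insulin action in fat. In bulk tissue, fewer cells of a type and less RNA per cell cannot be told apart.

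The promoters of 5 of the genes are shown because the results below turn on these genes. Adipoq and Lep mark fat, Rbp4 is high in liver and fat, and Apln (in eWAT without HS3W) and Angptl2 (in muscle) are the genes that passed the test for the diet. Each line holds the 250 bases before the transcription start in RefSeq (build GRCm38.p6, the same assembly as mm10), 5′ to 3′ on the strand of the gene, and for Rbp4 the second of its listed starts. Capitals mark matches to TTNNGNAA on either strand, the pattern of C/EBP factors, which drive adipocyte and hepatocyte genes.
Adipoq (chr16:23146286-23146535, plus strand): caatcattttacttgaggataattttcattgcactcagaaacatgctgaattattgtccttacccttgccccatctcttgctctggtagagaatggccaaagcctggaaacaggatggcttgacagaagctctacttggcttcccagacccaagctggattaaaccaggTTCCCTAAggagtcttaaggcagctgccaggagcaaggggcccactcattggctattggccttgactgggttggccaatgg
Lep (chr6:29059971-29060220, plus strand): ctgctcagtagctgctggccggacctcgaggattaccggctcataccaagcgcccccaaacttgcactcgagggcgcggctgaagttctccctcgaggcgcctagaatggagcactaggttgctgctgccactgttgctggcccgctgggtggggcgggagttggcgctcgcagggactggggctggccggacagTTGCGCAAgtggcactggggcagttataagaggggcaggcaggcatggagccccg
Rbp4 (chr19:38124812-38125061, minus strand): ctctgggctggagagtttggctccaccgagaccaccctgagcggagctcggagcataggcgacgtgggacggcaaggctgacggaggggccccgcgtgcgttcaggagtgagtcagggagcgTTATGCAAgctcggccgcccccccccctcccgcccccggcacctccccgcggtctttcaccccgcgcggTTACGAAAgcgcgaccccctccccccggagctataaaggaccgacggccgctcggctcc
Apln (chrX:48034854-48035103, minus strand): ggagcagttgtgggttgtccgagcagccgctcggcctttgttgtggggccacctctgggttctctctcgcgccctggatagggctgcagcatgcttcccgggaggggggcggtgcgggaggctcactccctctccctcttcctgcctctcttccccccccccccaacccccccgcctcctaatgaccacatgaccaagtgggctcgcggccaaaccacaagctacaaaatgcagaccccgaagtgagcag
Angptl2 (chr2:33215711-33215960, plus strand): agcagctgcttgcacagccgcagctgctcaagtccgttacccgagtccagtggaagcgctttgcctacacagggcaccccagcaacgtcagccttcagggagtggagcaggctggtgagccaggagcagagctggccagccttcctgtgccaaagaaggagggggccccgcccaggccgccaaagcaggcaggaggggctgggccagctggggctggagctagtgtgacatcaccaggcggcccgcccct
The match lies 81 bases before the start in Adipoq and 55 bases before it in Lep, and the Rbp4 start has matches at 128 and 59 bases. A TATA box (TATAAA) was found in the Rbp4 window only, 28 bases before the start. At least 1 match to TTNNGNAA was found for 5 of the 10 genes (Adipoq, Lep, Rbp4, Serpina12 and Adipor2), and 36.8% of the 32851 promoters in the table hold one within windows of this length. TATAAA stands in 12.4% of them. The windows of Apln and Angptl2 hold neither pattern.

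The libraries held between 7628071 and 16637489 fragments, as recovered from the FPKM, and some of them carried RNA of other tissues. The 14 adipocyte markers were all above 1 FPKM in each eWAT library, and their sum was between 8087 and 9493 FPKM in 5 of them and 3242 FPKM in HS3W. HS3W alone carried epididymal epithelium, with a sum of 29512 FPKM over 20 markers against at most 15.99 FPKM in the other eWAT libraries. The diet comparisons of the 10 genes in eWAT are therefore given with and without HS3W. CON eWAT held a trace of hepatocyte transcripts. Alb (albumin) was at 53.9 to 167 FPKM in the CON and at 3.30 to 7.85 FPKM in the HSD libraries. The paper lists Alb and Apoa2 among genes that were mainly lower in HSD eWAT. Whether these transcripts come from liver tissue or from the fat itself was not tested. Without HS3W, 13 of the 15 hepatocyte markers were called lower in HSD eWAT, with the lowest fold changes in Apoa1, Apoa2, Alb, Ahsg, Ambp, Serpina1b, Fga and Fgg (-4.16 to -2.75), and Cyp2e1 was called higher (1.10). The skeletal muscle genes Acta1, Tnnt3 and Pvalb were called higher in the same fit (1.25 to 1.57). The control liver library CON16L carried skeletal muscle RNA, with a sum of 5403 FPKM over 15 markers against at most 7.499 FPKM in the other liver libraries, and also some transcripts of fat. Transcripts encoded by mitochondria made up 15.4% to 60.8% of the fragments of a liver library, against 3.52% to 5.11% in eWAT and 11.3% to 16.5% in muscle. The study's own table leaves out CON16L, HS5L and HS5W.

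In CON mice, the 4 adipocyte hormones were far higher in eWAT than in muscle, and higher still relative to liver. Adipsin was the highest of the 10 genes in eWAT, at 9846 ± 754 FPKM (SD, n = 3), followed by Adipoq at 2048 ± 77.7, Retn at 694 ± 50.9, Lep at 402 ± 112 and Rbp4 at 353 ± 38.9 FPKM. The ranges of Lep and Rbp4 overlapped. Adipor2, Adipor1 and Angptl2 stood lower, at 99.97 ± 6.93, 37.9 ± 3.34 and 30.0 ± 0.713 FPKM, and Apln was at 6.45 ± 0.994 FPKM. In muscle of CON mice, Cfd was at 82.7 ± 34.6 and Adipoq at 10.2 ± 5.40 FPKM. Lep had no fragment in any liver library, so its mean in CON eWAT was at least 4132-fold higher than the level that 3 fragments per liver library would give. Liver had 0 to 1 fragment of Adipoq in 5 of its 6 libraries and 21 in CON16L. The floor and the fragments cover counting error only.

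**Figure D1:**
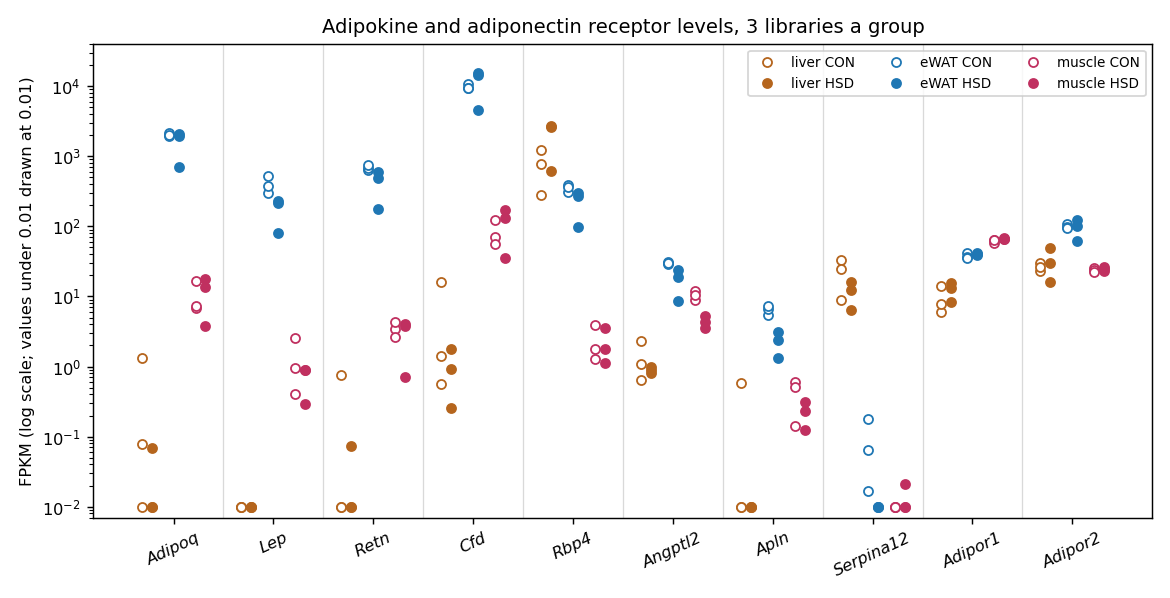
FPKM of the 10 genes in the 18 libraries on a log axis, by tissue (colour) and diet (open circles CON, filled circles HSD), with 1 point per library. Adipoq, Lep, Retn and Cfd are highest in eWAT, Serpina12 is found in liver only at more than 1 FPKM, and Rbp4 is high in both liver and eWAT.

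Limma on log2(FPKM + 0.5) over the 9 CON libraries, with Benjamini-Hochberg adjustment over 12637 genes, called a gene at an adjusted p under 0.05 and an absolute log2 difference of at least 1. Between CON eWAT and CON liver, 9 of the 10 genes were called, 8 of them higher in eWAT, where 69.4% of all genes tested were called. Between eWAT and muscle, 8 of 10 were called, all higher in eWAT on the deposited scale, against 54.9% of all genes, and between liver and muscle 8 of 10, against 50.1%. The median log2 difference of the 10 genes was 3.78 between eWAT and liver and 4.96 between eWAT and muscle, and that of all genes was 1.36 and 0.93. Median-ratio scaling took the medians of all genes to -0.03 and 0.07. Under it the differences of the 4 adipocyte hormones were at least 5.94 (Cfd, eWAT against muscle), Angptl2 lost its call between eWAT and muscle (0.47, adjusted p = 0.183) and Adipor1 was called lower in eWAT than in muscle (-1.69). The genes had been chosen as fat hormones, so their height in eWAT is a description of the tissue.

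Rbp4 and Serpina12 were the liver genes of the set. Serpina12 was at 8.85, 33.6 and 24.5 FPKM in the liver libraries CON14L, CON16L and CON72L. In eWAT it had 1, 10 and 4 fragments in the CON libraries and 0 in the HSD libraries, and in muscle 1 fragment in all 6 libraries together, although vaspin is known as a product of visceral fat. The hepatocyte trace described above was also higher in CON than in HSD eWAT, although CON16W, with 1 fragment of Serpina12, held more Alb (108 FPKM) than CON72W with 4 fragments (53.9 FPKM). The part of that trace was not tested. Rbp4 was at 762 ± 481 FPKM in CON liver and did not differ from CON eWAT beyond the spread (log2 difference eWAT minus liver -0.87 ± 0.54 (SE), limma adjusted p = 0.161, 95% interval -2.09 to 0.35). With median-ratio scaling it was -2.53 (adjusted p = 0.00188), with mitochondrially encoded genes left out -1.62 (adjusted p = 0.00485), and both pass the call as lower in eWAT. With 1 library left out it lay between -1.47 (without CON14L, adjusted p = 0.00599, called) and -0.39 (without CON16L, adjusted p = 0.455).

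In eWAT the adipocyte hormones stood differently to each other in HSD and CON libraries, and none of the 4 passed the test. In the libraries CON16W, CON71W and CON72W, Adipoq was at 2129, 1974 and 2041 FPKM, and in HS2W, HS3W and HS5W at 1937, 692 and 2059 FPKM. The ranges of the diets overlapped, with HS3W far below the other libraries. Lep was at 304, 525 and 378 FPKM in CON and at 229.8, 80.1 and 213 FPKM in HSD, in the same order of libraries, so all HSD libraries lay below all CON libraries. Retn was at 646, 689 and 747 FPKM in CON and at 488, 176 and 595 FPKM in HSD, again without overlap. Cfd was above CON in HS2W and HS5W, with 10714, 9353 and 9472 FPKM in CON and 14394, 4515 and 15478 FPKM in HSD. HS3W was the lowest of the 6 libraries for each of these 4 genes.

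None of the 13429 genes tested in eWAT by limma voom on the recovered fragments passed the call over the 6 libraries. By limma on log2(FPKM + 0.5), none of 13740 genes passed it (0%), and 2298 genes had an unadjusted p under 0.05. Lep stood at a log2 fold change of -1.31 ± 0.46 (SE, adjusted p = 0.251) and Retn at -0.90 ± 0.47 (adjusted p = 0.378), whereas Adipoq stood at -0.54 ± 0.48 and Cfd at 0.03 ± 0.68. Of the 9 genes of the set that passed the filter, 5 (Lep, Retn, Rbp4, Angptl2 and Apln) had every HSD library below every CON library, a pattern shown by 12.4% of all genes, and none had every HSD library above, a pattern shown by 16.2%. Without HS3W, 160 of 13245 genes were called (1.21%), and the fold changes were -0.82 ± 0.22 for Lep (adjusted p = 0.0807), -0.36 ± 0.12 for Retn (adjusted p = 0.125), -0.04 ± 0.10 for Adipoq (adjusted p = 0.853) and 0.60 ± 0.16 for Cfd (adjusted p = 0.0718). In these 5 libraries, the same 5 genes lay below CON (20.5% of all genes) and Cfd lay above CON (26.2% of all genes).

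Since HS3W holds fewer adipocyte transcripts, each gene was also divided by Adipoq of the same library, a comparison added after the values were seen. Per 1000 units of Adipoq, Cfd was at 5033, 4739 and 4641 in CON16W, CON71W and CON72W and at 7433, 6525 and 7516 in HS2W, HS3W and HS5W. On this scale HS3W lay above all CON libraries, as the other HSD libraries did. Lep was at 143, 266 and 185 in CON and at 119, 116 and 103 in HSD, and Retn at 303, 349 and 366 in CON and at 252, 255 and 289 in HSD. Of 8 such ratios, 4 (Lep, Retn, Angptl2 and Apln) were lower in every HSD library than in every CON library, a pattern of 1.89% of all genes divided by Adipoq, and Cfd was higher in every HSD library, a pattern of 27.2% of all genes. The other 3 overlapped. Before the division, 12.4% of all genes lay below CON in every HSD library and 16.2% above. Adipoq was low in HS3W (692 FPKM), so dividing by it raised all genes of this HSD library relative to the other libraries. This makes the pattern below CON rarer and the pattern above CON commoner over all genes. No share over adipocyte genes alone or without HS3W was computed. The mean ratio in HSD was 1.49 times that in CON for Cfd, 0.569 times for Lep, 0.782 times for Retn, 0.774 times for Angptl2 and 0.493 times for Apln. Each of these 5 differences had p = 0.1 in a 2-sided exact permutation test, the smallest value that 3 against 3 libraries allow, and the ratios share their denominator.

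**Figure D2:**
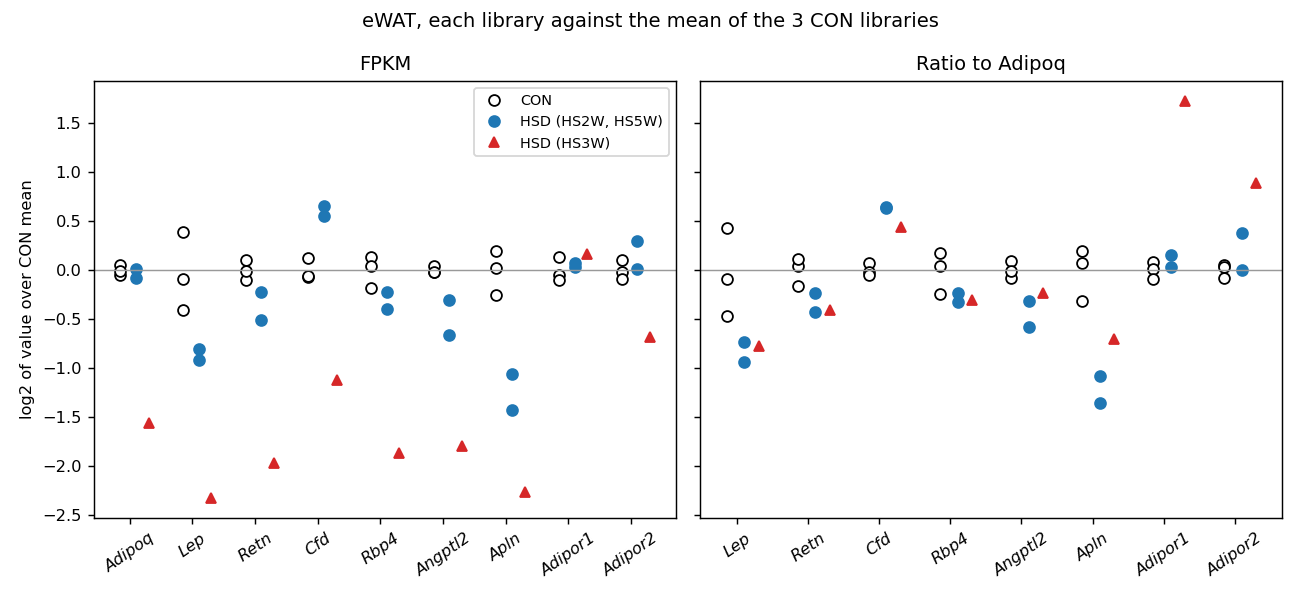
log2 of each eWAT library over the mean of the 3 CON libraries, for FPKM (left) and for the ratio to Adipoq (right), with open circles for CON, filled circles for HS2W and HS5W and a triangle for HS3W. HS3W stands below the other libraries for the hormones on the left and between the other 2 HSD libraries for Lep, Retn and Rbp4 on the right.

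Scaling all eWAT libraries to the 14 adipocyte markers, also added later, left 0 of 14079 genes called (0%) and moved the median of all genes from 0.08 to 0.52. Lep was then at -0.84, Retn at -0.43 and Cfd at 0.50 (adjusted p = 0.605 each), the last of them at the median of all genes. With the same scaling and without HS3W, 144 of 13251 genes were called (1.09%), the median of all genes was 0.03, and Lep was at -0.84 (adjusted p = 0.0815) and Cfd at 0.59 (adjusted p = 0.104).

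Of the 9 genes of the set that passed the filter in eWAT, apelin had the lowest log2 fold change. Apln, a peptide hormone of adipocytes and of growing vessels, was at 5.41, 6.56 and 7.39 FPKM in CON16W, CON71W and CON72W (273, 313 and 387 fragments) and at 2.40, 1.34 and 3.08 FPKM in HS2W, HS3W and HS5W (103, 52 and 127 fragments). The groups did not overlap. Over all 6 libraries the log2 fold change was -1.37 ± 0.27 (adjusted p = 0.132, not called), and without HS3W Apln fell by 1.10 ± 0.16 (limma adjusted p = 0.0255), the only gene of the set that was called in eWAT. Scaled to the adipocyte markers and without HS3W, it fell by 1.12 (adjusted p = 0.0223). With limma's arrayWeights, which weight libraries by their spread, the fold change over all 6 libraries was -1.21 (adjusted p = 0.0140, called). In that fit 220 of 13740 genes were called. The sum of the 8 vascular endothelial markers was 355 to 397 FPKM in CON and 367 and 445 FPKM in HS2W and HS5W, against 135 FPKM in HS3W. The apelin receptor Aplnr, at 19.6, 19.96 and 24.4 FPKM in CON and 13.9, 4.70 and 20.2 FPKM in HSD, had a fold change of -0.33 without HS3W and was not called.

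Angptl2, an angiopoietin-like protein linked to inflammation of fat, was at 29.5, 30.8 and 29.6 FPKM in CON eWAT and at 18.9, 8.64 and 24.2 FPKM in HSD eWAT. Its log2 fold change was -0.90 ± 0.36 over 6 libraries (adjusted p = 0.297) and -0.48 ± 0.11 without HS3W (adjusted p = 0.0604). Rbp4 was at 310, 386 and 363 FPKM in CON and at 268, 97.0 and 303 FPKM in HSD, with fold changes of -0.82 ± 0.45 (adjusted p = 0.396) and, without HS3W, -0.30 ± 0.12 (adjusted p = 0.172). At the highest Rbp4 to Alb ratio of any liver library, the Alb of the CON eWAT libraries would carry 4.13 to 12.8 FPKM of Rbp4. The carried amount in the HSD libraries would be 0.253 to 0.602 FPKM. CON16W and HS5W, the nearest libraries of the 2 diets, lie closer to each other than the highest of these carried amounts.

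In muscle, Angptl2 fell with HSD. It was at 12.1, 9.04 and 10.6 FPKM in CON16M, CON71M and CON72M (1009, 673 and 746 fragments) and at 3.51, 4.37 and 5.32 FPKM in HS2M, HS3M and HS5M (294, 357 and 415 fragments). The lowest CON library was thus well above the highest HSD library. The log2 fold change was -1.18 ± 0.16 (SE, limma adjusted p = 0.0193, 95% interval -1.55 to -0.82). This was the only one of the 8 genes tested in muscle that was called, where 35 of 10834 genes were called (0.323%; 54 with the replicate number as a block, in which Angptl2 had an adjusted p = 0.0139). The fold change lay between -1.32 and -1.05 when any 1 library was left out. The adjusted p rose to 0.0678 without CON16M, to 0.0873 without CON72M and to 0.0599 without HS3M, and to 0.0757 with no filter on low FPKM. Voom on the recovered fragments gave -1.28 (adjusted p = 0.00585). Angptl2 lies within Ralgps1, which is on the opposite strand (chr2:33216069-33247717 on the plus strand for Angptl2, build mm10), and shares 0 exon bases with it.

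Macrophage and blood cell markers were lower on average in HSD muscle as well, and none of them passed the test. The macrophage sum, over 12 genes, was 71.4, 40.1 and 67.8 FPKM in the muscle of CON16M, CON71M and CON72M and 36.7, 35.9 and 32.3 FPKM in HS2M, HS3M and HS5M. Lyz2 (lysozyme) held most of it, and Clec4f was at 0 in all 6 muscle libraries. None of the 8 macrophage markers tested was called in muscle, and their median log2 fold change was -0.52 against -0.06 for all genes, with 6 negative values and 2 positive ones (Cd163 and Cd14). The 5 blood cell markers (globins and Alas2) all had negative fold changes in muscle, with a median of -1.07, and none was called. Their sum was 965, 124 and 224 FPKM in CON16M, CON71M and CON72M and 134, 174 and 127 FPKM in HS2M, HS3M and HS5M, so these groups overlapped. In eWAT and liver all 5 were negative too, with medians of -1.26 and -1.85. The groups overlapped there as well, and the mouse CON16 had the highest sum in each tissue (5667 FPKM in CON16W, 5626 FPKM in CON16L). The other CON libraries were at 243 and 744 FPKM in eWAT and at 471 and 842 FPKM in liver. HSD libraries were at 318 to 548 FPKM in eWAT and at 237 to 664 FPKM in liver. Of the 15 skeletal muscle markers, 2 were called in muscle, Myh1 and Myh2 (myosin heavy chains of fast fibres), lower in HSD (-1.01 and -1.06). The list as a whole did not fall, with 9 positive and 6 negative fold changes and a median of 0.06. The mean of Myh4, from the same list, was 8632 ± 1264 FPKM in CON and 9535 ± 1666 FPKM in HSD muscle (SD). In eWAT the macrophage sum was 406 to 616 FPKM in CON and 175 to 390 FPKM in HSD, and in liver 47.2 to 55.0 FPKM in CON and 18.2 to 31.7 FPKM in HSD. The part of macrophages or of blood in the Angptl2 result was not tested.

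**Figure D3:**
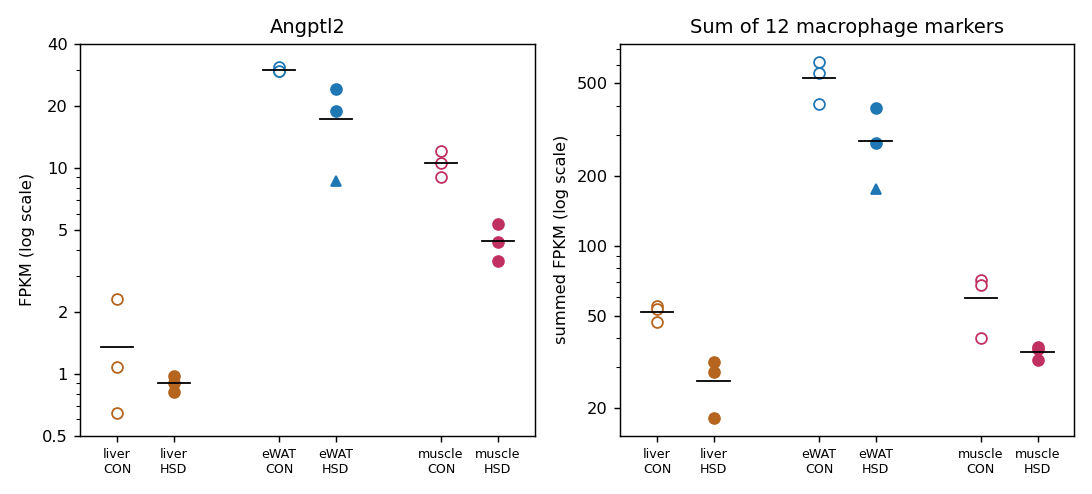
Angptl2 FPKM (left) and the summed FPKM of 12 macrophage markers (right) on log axes, by tissue and diet, with 1 point per library, a triangle for HS3W and a line at the mean of each group. Angptl2 of muscle lies at 9.04 to 12.1 FPKM in CON and at 3.51 to 5.32 FPKM in HSD, and the macrophage sum is lower in HSD in each tissue.

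The adipocyte hormones themselves were found in muscle as a trace that varied from library to library. Adipoq was at 6.94, 16.4 and 7.25 FPKM in CON16M, CON71M and CON72M and at 3.75, 17.6 and 13.7 FPKM in HS2M, HS3M and HS5M. HS2M and HS3M, of the same diet, were the lowest and the highest library. Cfd, at 70.8, 122 and 55.7 FPKM in CON and 35.8, 170.1 and 132 FPKM in HSD, was likewise lowest in HS2M and highest in HS3M. Per 1000 units of Adipoq, muscle held 7400 to 10202 of Cfd, 190.1 to 496 of Retn and 131 to 298 of Rbp4. The corresponding values of eWAT were 4641 to 7516, 252 to 366 and 138 to 196. None of Adipoq, Lep, Retn, Cfd and Rbp4 was called in muscle, with log2 fold changes of 0.05 ± 0.50, -0.46 ± 0.40, -0.44 ± 0.44, 0.25 ± 0.51 and -0.09 ± 0.37. Their 95% intervals reached from -1.06 to 1.17 for Adipoq and from -1.34 to 0.43 for Lep, so a change of 2 times in Adipoq in either direction is within the interval.

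Angptl2 stood outside this pattern. At the highest eWAT ratio to Adipoq, the fat trace of the muscle libraries would carry 0.0585 to 0.274 FPKM of Angptl2, against 3.51 to 12.1 FPKM measured. Lep of muscle, at 0.945, 2.54 and 0.3998 FPKM in CON and 0.291, 0.895 and 0.889 FPKM in HSD (13 to 101 fragments), was below what the highest eWAT ratio would give in all 6 libraries. Per 1000 units of Adipoq, Lep was at 136, 155 and 55.1 in CON16M, CON71M and CON72M. It was at 77.6, 51.0 and 64.8 in HS2M, HS3M and HS5M. The eWAT range was 103 to 266, so CON72M and the HSD libraries lay below all of it. Apln was at 0.122 to 0.599 FPKM in muscle (5 to 25 fragments), under the filter of a mean of 0.5 FPKM, and was not tested there. The trace would carry 0.0136 to 0.0636 FPKM of Apln at the highest eWAT ratio, less than was measured in each muscle library.

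**Figure D4:**
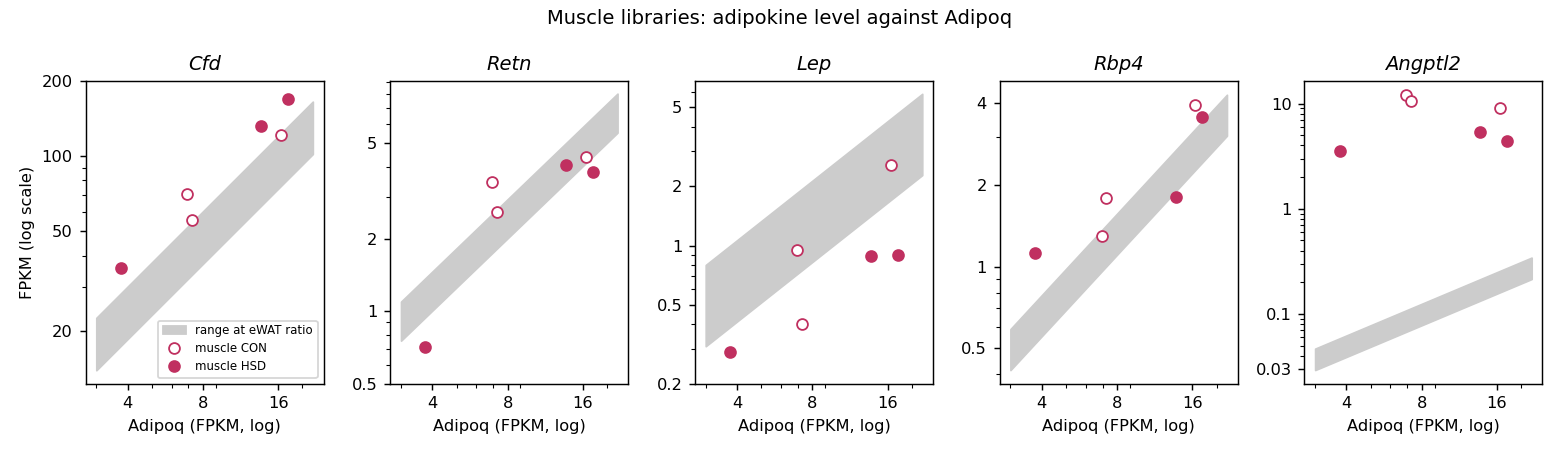
Level of 5 adipokines against Adipoq in the 6 muscle libraries, both in FPKM on log axes, with open circles for CON and filled circles for HSD. The grey band is the range that the gene-to-Adipoq ratios of the 6 eWAT libraries would give. Retn and Rbp4 lie around it, Lep within or below it, Cfd near or above its upper edge and Angptl2 far above it.

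In liver, Rbp4 was at 276, 1238 and 771 FPKM in CON14L, CON16L and CON72L and at 2643, 2665 and 626 FPKM in HS2L, HS4L and HS5L. HS2L and HS4L were thus above all CON libraries and HS5L below 2 of them. The log2 fold change was 1.35 ± 0.80 (limma adjusted p = 0.764), and 0 of 10317 genes were called in liver (0%) by limma, with 592 at an unadjusted p under 0.05. By voom, 0 of 10100 genes were called. The order of the 6 libraries by Rbp4 was the reverse of their order by the share of mitochondrially encoded transcripts, which was 60.8%, 25.7% and 37.8% in CON and 16.3%, 15.4% and 44.4% in HSD. Over the other fragments only, Rbp4 was at 705, 1666 and 1241 FPKM in CON and 3156, 3149 and 1126 FPKM in HSD, a difference of 0.98 ± 0.51 (adjusted p = 0.901). Over the 4 libraries of the study's table it was 2.52 ± 0.80 (adjusted p = 0.0906), and with limma's arrayWeights, which weight libraries by their spread, 1.78 (adjusted p = 8.44e-05). In this last fit 926 of 10317 genes of liver were called, and 7414 had an unadjusted p under 0.05. The part of the mitochondrial share was not tested.

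Serpina12 in HSD liver was at 12.5, 15.9 and 6.47 FPKM in HS2L, HS4L and HS5L, with the CON values given above, and had a fold change of -0.81 ± 0.55 (adjusted p = 0.764). Over the fragments that are not mitochondrial, it was at 22.6, 45.2 and 39.5 FPKM in CON and at 14.9, 18.8 and 11.6 FPKM in HSD. The groups no longer overlapped on that scale, and the difference was -1.18 ± 0.35 (adjusted p = 0.901, not called). The median of all genes was -0.20 on that scale and 0.13 as deposited. The share of all genes without overlap was not computed on that scale. Without CON16L the difference of Serpina12 was -0.42 ± 0.54 as deposited. Over the 6 genes of the set that were tested in liver, none had groups without overlap in the deposited FPKM, where 8.62% of all genes lay above CON and 3.47% below CON in every HSD library. The fold change of Cfd in liver was -1.26 ± 0.96 with CON16L (16.04 FPKM, 172 fragments) and -0.09 ± 0.47 without it, and that of Angptl2 was -0.30 ± 0.34 and 0.06 ± 0.26.

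**Figure D5:**
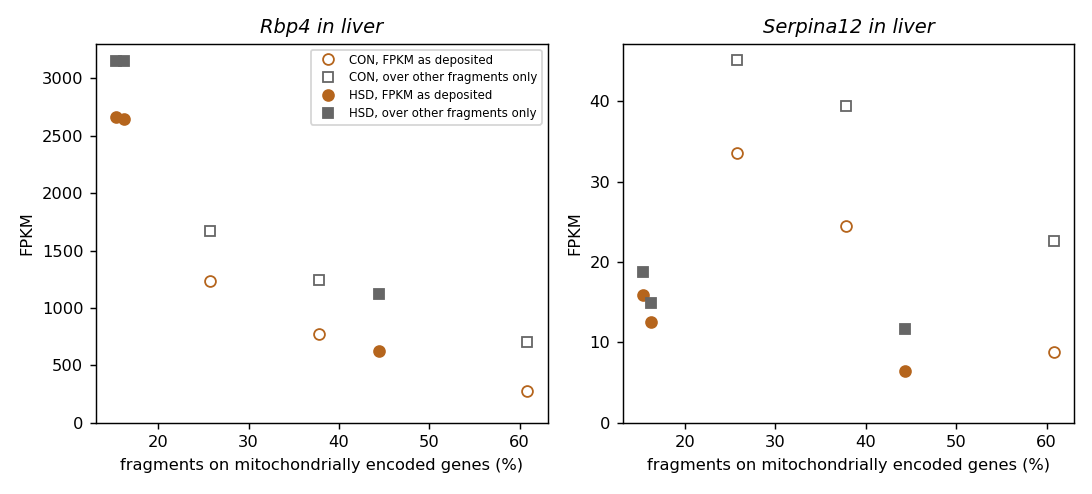
Rbp4 (left) and Serpina12 (right) in the 6 liver libraries against the share of fragments on mitochondrially encoded genes, in FPKM as deposited (circles) and over the other fragments only (squares), with open symbols for CON and filled symbols for HSD. Rbp4 declines along the axis from 2665 FPKM at 15.4% to 276 FPKM at 60.8%.

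The receptors of adiponectin were present in all 3 tissues and differed far less between them than the hormone. Adipor1, the receptor best known from muscle, was highest there, at 62.8, 57.7 and 63.1 FPKM in CON and 65.3, 66.2 and 68.8 FPKM in HSD. It stood at 35.3 to 42.3 FPKM in eWAT and at 6.08 to 15.3 FPKM in liver. Adipor2, the receptor best known from liver, was highest in eWAT, at 108, 98.3 and 94.0 FPKM in CON and 123, 62.3 and 101 FPKM in HSD, and was at 16.3 to 49.0 FPKM in liver and 22.1 to 26.6 FPKM in muscle. Within a library, Adipor2 was 0.390 ± 0.0347 times Adipor1 in CON muscle, 2.64 ± 0.0520 times in CON eWAT and 3.09 ± 0.888 times in CON liver (SD, n = 3). So Adipor1 led in each muscle library and Adipor2 in each liver and eWAT library.

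Between CON tissues, Adipor1 was lower in liver than in muscle by a log2 difference of -2.73 ± 0.28 (adjusted p = 2.41e-05), and this held under median-ratio scaling (-2.13). Adipor2 was higher in eWAT than in muscle by 2.05 ± 0.18 (adjusted p = 9.19e-06; 1.03 under median-ratio scaling). The higher values in eWAT than in liver (2.04 for Adipor1, 1.91 for Adipor2) lost the call under median-ratio scaling, with 0.43 and 0.26, and Adipor1 of eWAT against muscle gained it (-0.69 as deposited, -1.69 rescaled). Adipor2 of liver and muscle differed by 0.14 ± 0.18 (adjusted p = 0.509, 95% interval -0.27 to 0.55). That difference was 0.77 under median-ratio scaling (adjusted p = 0.00161, 95% interval 0.43 to 1.11) and 0.73 with mitochondrially encoded genes left out (adjusted p = 0.00726), higher in liver and under the fold limit of the call in both.

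Neither receptor was called for diet in any tissue. In muscle the 3 HSD libraries of Adipor1 lay above the 3 CON libraries, a pattern of 6.72% of all genes there, and the log2 fold change was 0.13 ± 0.11 (adjusted p = 0.596, 95% interval -0.12 to 0.37). Of the other 7 genes tested in muscle, only Angptl2 had groups without overlap, below CON as 15.6% of all genes did. Adipor2 had 0.04 ± 0.12 in muscle and, in eWAT, -0.12 ± 0.26 over 6 libraries and 0.16 ± 0.11 without HS3W. Adipor1 of eWAT had 0.09 ± 0.10 with HS3W, whose value of 42.3 FPKM was the highest of the 6, and 0.05 ± 0.09 without it. In liver, Adipor1 had 0.41 ± 0.39 and Adipor2 0.14 ± 0.44 (adjusted p = 0.773 and 0.933), and Adipor1 had 0.06 ± 0.28 once the mitochondrial transcripts were left out.

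A diet effect that passes in 1 tissue only does not show that tissues differ, so the difference itself was tested in 1 limma model of all 18 libraries. None of the 10 genes was called. Of 13067 genes, 99 were called between eWAT and liver (0.758%), 0 between eWAT and muscle (0%, with 1045 at an unadjusted p under 0.05; voom was not run on this comparison) and 8 between liver and muscle (0.0612%). For Lep, the log2 fold change in eWAT minus that in liver was -1.31 ± 0.59 (adjusted p = 0.347) and in eWAT minus muscle -0.86 ± 0.59 (adjusted p = 0.741). Lep had no fragment in any liver library, so its -1.31 is the fold change of eWAT alone and does not compare 2 responses. The Rbp4 difference between eWAT and liver was -2.17 ± 0.91 (adjusted p = 0.314). Over the 15 libraries of the study's table, 2455 of 13149 genes were called between eWAT and liver and 1286 of 13149 between liver and muscle. Between eWAT and liver these included Rbp4 (-3.65 ± 0.79, adjusted p = 0.00848), Apln (-1.58, adjusted p = 0.0138) and Angptl2 (-1.29, adjusted p = 0.0348). Between liver and muscle they included Rbp4 (2.62, adjusted p = 0.0392) and Angptl2 (1.28, adjusted p = 0.0433). Apln had no fragment in the liver libraries of that table (CON14L, CON72L, HS2L and HS4L). Its -1.58 is therefore the fold change of eWAT alone and does not compare 2 responses. For Angptl2, whose effect passed in muscle, eWAT minus muscle was 0.29 ± 0.46 (adjusted p = 0.916).

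Genes that act with the hormones were described by lists. Of the 14 genes of adiponectin assembly and receptor signalling (Erp44 and Ero1a, which act on the folding of the hormone, the adaptors Appl1 and Appl2, the catalytic AMPK subunits and others), 12 passed the filter in eWAT and muscle and 11 in liver, and none was called in any tissue. Gstk1 (DsbA-L), which helps adiponectin to form multimers, was the highest of them in eWAT, at 34.0 ± 1.48 FPKM in CON and 28.8 ± 3.11 FPKM in HSD. Stk11 and Prkaa1, kinases of the AMPK pathway, were at 28.8 ± 0.772 and 23.3 ± 1.66 FPKM in CON and at 29.7 ± 3.54 and 20.7 ± 6.99 FPKM in HSD. Without HS3W the HSD means (n = 2) of Gstk1, Stk11 and Prkaa1 were 27.6, 31.7 and 24.6 FPKM. The median log2 fold change of the list was 0.11 in eWAT (also 0.11 without HS3W), 0.11 in liver and -0.06 in muscle, against 0.08, 0.13 and -0.06 for all genes tested.

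Of the 18 receptors and partners of the other adipokines, 14 were tested in eWAT, and none was called over the 6 libraries. Without HS3W only Ttr (transthyretin, the plasma partner of Rbp4 that is made in liver) was called, at -3.19 (adjusted p = 0.0244). Ttr was at 17.8, 24.6 and 9.22 FPKM in CON eWAT and at 1.92, 0.411 and 0.838 FPKM in HSD eWAT, and 13 of the 15 hepatocyte markers were called lower in the same fit. The highest genes of that list in eWAT were C3 (complement component), Itgb1 (an integrin) and Hspa5 (a chaperone), at 175 ± 38.3, 131 ± 2.86 and 97.9 ± 6.52 FPKM in CON. None was called in eWAT, at 162 ± 84.2, 129.7 ± 8.21 and 135 ± 88.9 FPKM in HSD, or 208, 134 and 83.7 FPKM without HS3W (n = 2). The leptin receptor Lepr, which like Aplnr was picked after its values were seen, was low in eWAT, at 1.12 ± 0.293 FPKM in CON and 1.97 ± 0.561 FPKM in HSD (2.12 ± 0.701 FPKM without HS3W, n = 2), and was not called.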

How the data were processed

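RNA of 18 libraries was sequenced as paired ends after rRNA depletion with a stranded kit. Per the study's methods, the authors used cutadapt for trimming, hisat2 for alignment (build mm10) and cuffdiff for the deposited FPKM of each gene, together with an Ensembl annotation, whose release is not given in the sources used here; the submitters' processing notes also list HTSeq 0.9.1. FPKM correct for gene length and library size, so a transcript class that fills a library lowers all others. Values of low genes are whole multiples of 1 fragment. With union exon lengths of GENCODE M21, 18346 of 18822 genes above 0 gave whole fragments (within 0.05) in all 18 libraries, and these give the fragments and depth.

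Groups followed the labels. Diet was compared within each tissue, tissues among the 9 CON libraries and the diet effect between tissues in 1 model of 18 libraries, by limma 3.58.1 in R 4.3.3 on log2(FPKM + 0.5), with a mean FPKM of at least 0.5, a variance trend and Benjamini-Hochberg adjustment over all genes tested; fold changes on this scale understate those of low genes. Genes were called at an adjusted p under 0.05 and an absolute log2 difference of at least 1. A count model was not used as the main test because the files hold FPKM. Ratios were compared by 2-sided exact permutation tests. The code was checked on simulated data. Alternatives were other pseudocounts (0.1 and 1) and filters, median-ratio scaling, mitochondrial genes left out, arrayWeights, a replicate block, voom on the recovered fragments, each library left out and the libraries of the study's table. Scaling to the adipocyte markers and the ratios to Adipoq were added after seeing the data.

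Same-numbered CON and HSD mice are different animals. The deviations of same-numbered muscle libraries correlated with r = 0.38, 0.18 and 0.18, so the block value is given for muscle. In liver (-0.47, 0.40 and -0.21) and eWAT (-0.20, 0.06 and 0.41) they did not do so throughout. P-values of the diet fits within a tissue measure the spread between mice. In the fits across tissues most mice gave several libraries, which the main model treated as independent. As a further alternative, the mouse was a random block there. It gave 8760, 6953 and 6314 called genes between control eWAT and liver, eWAT and muscle, and liver and muscle. For the difference of the diet effect, the counts were 101, 0 and 8 in the same order.

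The members and gene lists were chosen with earlier results of these data known. Named are all members, and from each list at most 8 called genes by fold change and at most 3 of the highest genes, and for Adipoq, Lep and Retn the 5 genes most like them. Python 3.11.15 with numpy 2.4.6, pandas 2.3.3 and matplotlib 3.10.9 was used for the tables and plots.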

Additional observations from a re-analysis of the deposited data

How the results depend on the processing

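Of 377 diet values of the members under alternatives, 341 kept direction and side of the threshold, 28 changed direction, 4 lost and 4 gained the call, and of 480 tissue values 473 kept both and none changed direction; the causes were not tested. In liver, 0 genes were called, but 926 with arrayWeights and 35 in the libraries of the study's table. In eWAT the 0 became 220 with arrayWeights and 144 with scaling to the adipocyte markers without HS3W. In muscle the 35 became 7 with no filter, 97 by adjusted p alone, 66 with voom and 54 with the replicate block, which changed no call of a member. The count between control eWAT and liver went from 8768 to 5189 under median-ratio scaling. For the difference of the diet effect between eWAT and liver, the 99 became 43 with median-ratio scaling, 53 without mitochondrial genes and 2455 in the study's libraries. Between eWAT and muscle, the 0 became 19 with a pseudocount of 1, 21 with no filter, 2 with median-ratio scaling and 170 in the study's libraries, and between liver and muscle the 8 became 5 with a pseudocount of 0.1, 4 without mitochondrial genes and 1286 in the study's libraries.

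Directions turned for Cfd in liver (0.34, study's libraries), Angptl2 in liver (0.32, adjusted p = 0.0286 by limma with arrayWeights, and 0.10, study's libraries), Adipor2 in liver (-0.23, mitochondrial genes left out), Cfd in eWAT (-0.037, median-ratio scaling, and -0.29, study's libraries), Adipor2 in eWAT (0.19 with arrayWeights, 0.35 scaled to adipocyte markers and 0.14 so scaled without HS3W) and Adipor2 in muscle (-0.0073, arrayWeights).

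With 1 library left out, counts ranged from 0 to 1 in liver, from 0 to 160 in eWAT (160 without HS3W, at most 1 otherwise) and from 10 to 61 in muscle (13 without CON16M, 10 without CON72M, 15 without HS3M, 23 without HS5M, 61 without HS2M). The counts of differing diet effects ranged from 37 to 544 between eWAT and liver and from 1 to 59 between liver and muscle (544 and 59 without HS5L), and from 0 to 145 between eWAT and muscle (145 without HS5W). Ranges that crossed 0 were -0.59 to 0.055 for Angptl2 and -0.24 to 0.54 for Adipor2 in liver. In eWAT they were -0.29 to 0.60 for Cfd and -0.33 to 0.16 for Adipor2. In muscle they were -0.35 to 0.69 for Adipoq, -0.86 to 0.016 for Lep, -0.77 to 0.18 for Retn, -0.19 to 0.93 for Cfd, -0.45 to 0.28 for Rbp4 and -0.014 to 0.10 for Adipor2. Outside eWAT, Apln, Lep and Retn rest on few fragments.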

Other observations

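The other secreted factors of fat were measured as well. Of 26 such genes, 22 were tested in eWAT and none was called, with 17 of them lower in HSD and a median log2 fold change of -0.37. Without HS3W the median was -0.19 with 18 of 23 lower, and scaled to the adipocyte markers over all 6 libraries it was 0.05 with 11 of 23 lower, none of them called in either fit. The medians of all genes in these 3 fits were 0.08, 0.04 and 0.52. Scaled and without HS3W, the list was at -0.21 with 18 of 23 lower and none called, against 0.03 for all genes. The highest genes of the list were Lpl (lipoprotein lipase), Retnla (a resistin-like protein of macrophages and fat) and Agt (angiotensinogen, the precursor of angiotensin). Lpl was at 1020 ± 152 FPKM in CON and 598 ± 274 FPKM in HSD eWAT, and Retnla at 627 ± 152 and 279.9 ± 143 FPKM. Agt was at 186 ± 20.8 and 171 ± 81.8 FPKM (SD, n = 3). Without HS3W the HSD means (n = 2) were 755 FPKM for Lpl and 358 FPKM for Retnla, and HS3W was the lowest HSD library for Agt (79.4 FPKM). In muscle 1 of 20 was called, where 35 of 10834 genes were called (0.323%). C1qtnf3 (CTRP3, a protein with a domain like that of adiponectin) fell by 1.29 (limma adjusted p = 0.0444). It was at 1.56, 0.792 and 1.71 FPKM in CON and at 0.353, 0.301 and 0.0946 FPKM in HSD muscle. All HSD values lie under the filter of a mean of 0.5 FPKM, so the gene was tested only through its CON values. Its call was not looked at under the other settings.

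Over all 18 libraries, the genes with the pattern most like that of Adipoq were Prkd1, Plin1, Cav2, Aoc3 and Adam15, with Pearson r on log2(FPKM + 0.5) between 0.994 and 0.996 among 13067 genes. For Lep they were Serpina3c, Apcdd1, Npr3, Slc24a3 and Jazf1 (0.996 to 0.998), and for Retn they were Plin1, Dram1, Aoc3, Slc36a2 and Cidec (0.995 to 0.998). The points share tissues and mice. Over the 6 muscle libraries alone, among 10834 genes, Nck1, Cdo1, Icam2, Jam2 and Pus7l were most like Adipoq (0.983 to 0.9901), and Mmrn2, Tmem86a, Atp6ap2, D030056L22Rik and Nsmce3 most like Lep (0.966 to 0.9935). With 6 points and this many genes, such values are a description only.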
